A study of Mus musculus with 2 samples.

Results

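Cell cycle genes were read from 2 coronal brain sections as raw counts of unique molecular identifiers (UMIs) in 16 µm bins. The list holds 44 of the 19070 genes in the count tables, 13 that act in DNA replication and 31 that act in mitosis, chosen by their known roles with earlier results of these data in view and matched by symbol. The sections came from male C57Bl6 mice that had received a controlled cortical impact (CCI), a piston blow to the exposed cortex, at 3 months of age. A later collection therefore also means an older mouse. One group was the brain taken 3 days after the impact and the other the brain taken 28 days after it, with 1 section of 1 mouse in each, so that a difference between the times cannot be told apart from a difference between the mice. Both mice carried the injury and had no other treatment according to the labels, the tissue was perfusion fixed and embedded in paraffin, and no sham section was analysed here. The side opposite the injury is therefore the reference within each section, and it is a side of an injured brain.

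A cell that divides copies its DNA in S phase and separates the copies in mitosis. The MCM proteins form the helicase that opens the DNA, Pcna is the clamp that holds the polymerases on it, and Rrm1, Rrm2, Tyms and Tk1 make the nucleotides that copying consumes. Entry into mitosis is driven by Cdk1 with its cyclins, and kinesins, centromere proteins, checkpoint kinases and the anaphase-promoting complex then move and part the chromosomes. Most neurons of the adult brain have left the cycle for good, whereas microglia, oligodendrocyte precursors, endothelial cells, infiltrating immune cells and the progenitors of the ventricular wall and dentate gyrus can divide.

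The 3-day section held 121967 bins with a median of 836 UMIs, and the 28-day section 105589 bins with a median of 596 UMIs. After bins under 100 UMIs were left out, 119617 and 103316 bins remained, of which 39116 and 49478 lay on the injured side, so that the 3-day section shows that side only in part. The members together had 37982 UMIs at 3 days and 15083 UMIs at 28 days, so a single member has few UMIs per bin and is described here over areas. Levels are given as CPM, the UMIs of a gene per 1000000 UMIs of the same area. The tissue label was borne out by the neuron markers, which summed to 6058 CPM over the 3-day and 6169 CPM over the 28-day section. The lesion zone was the tissue of the injured side where 6 phagocyte genes that are no members, Cd68, Lyz2, Ctsz, Lgals3, Cd52 and Laptm5, took a share of UMIs that exceeded the 99th percentile seen on the other side. It covered 7592 bins at 3 days and 13962 bins at 28 days, and its mirror area is its reflection across the midline. All intervals are exact at 95% and cover counting error only, since 1 section per time leaves the spread between animals unmeasured and no test across animals can be made. The probes differ between genes, so levels of different genes are not ranked against each other.

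Promoters of the members are shown because genes of the 2 groups stood high together in the areas described below and because S phase and mitosis genes are known to carry different elements before their starts. Promoter windows from RefSeq on build GRCm38.p6, 250 bases before to 50 bases after each start, were found for 37 of the 44 members, and none were found for Mcm4, Foxm1, Pbk, Kif20a, Aurkb, Ccna2 and Tpx2. The cell cycle homology region, spelled TTTGAA and searched on both strands, was in 20 of 25 mitosis promoters and in 1 of 12 replication promoters, that of Mcm2, against 18.1% of all 27025 promoters. The CCAAT box was in 23 of 25 mitosis and 9 of 12 replication promoters, against 37.9% of all. An E2F element, spelled TTTCCCGC or TTTGGCGC, was in 0 of 25 mitosis promoters and in 5 of 12 replication promoters, those of Mcm3, Mcm5, Mcm6, Mcm7 and Cdc6, against 1.63% of all. The 100 bases before the start are printed below for 6 genes, 5′ to 3′ along the gene's strand, with every match to one of these elements on either strand in capitals. Those of Cdk1, Top2a, Kif11 and Mki67 show mitosis genes whose values are given below, that of Mcm6 holds an E2F element, and that of Rrm1 shows a replication gene with CCAAT boxes alone. They lie at chr10:69352913-69353012 (minus strand) for Cdk1, chr11:99024190-99024289 (minus strand) for Top2a, chr19:37376282-37376381 (plus strand) for Kif11, chr7:135716380-135716479 (minus strand) for Mki67, chr1:128359706-128359805 (minus strand) for Mcm6 and chr7:102441595-102441694 (plus strand) for Rrm1. The matches are letters in a window, and nothing about binding was measured.
Cdk1: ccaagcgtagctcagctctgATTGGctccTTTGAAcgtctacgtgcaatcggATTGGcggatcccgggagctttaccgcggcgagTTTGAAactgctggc
Top2a: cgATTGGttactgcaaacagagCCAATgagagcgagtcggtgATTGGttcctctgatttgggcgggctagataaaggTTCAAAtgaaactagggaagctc
Kif11: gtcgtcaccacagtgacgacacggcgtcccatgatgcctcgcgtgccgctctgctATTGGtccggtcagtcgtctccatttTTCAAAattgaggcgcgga
Mki67: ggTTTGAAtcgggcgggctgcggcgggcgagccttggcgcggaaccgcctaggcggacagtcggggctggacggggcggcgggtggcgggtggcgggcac
Mcm6: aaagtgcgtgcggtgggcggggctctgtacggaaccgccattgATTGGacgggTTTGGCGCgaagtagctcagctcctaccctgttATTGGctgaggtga
Rrm1: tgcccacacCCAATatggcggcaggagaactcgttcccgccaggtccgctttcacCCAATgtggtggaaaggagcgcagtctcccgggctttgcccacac

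At 3 days both groups of genes were higher on the injured side, the mitosis genes by more. The 31 mitosis genes summed to 268 CPM on the side of the impact and to 76.3 CPM on the other side, a log2 ratio of 1.82 (95% counting interval 1.77 to 1.86). The 13 replication genes summed to 272 CPM and 137 CPM, a log2 ratio of 0.99 (0.95 to 1.02). In such bins, more cells in cycle and more RNA per cell cannot be told apart. The sides also differed in makeup. Neuron markers had 3971 CPM on the injured and 7003 CPM on the opposite side, monocyte and macrophage markers 42.6 and 5.50 CPM. Oligodendrocyte markers had 5663 and 3447 CPM and choroid plexus markers 271 and 54.4 CPM. The part of this makeup in the member levels was not tested. Of the 44 members, 39 were at least 2-fold higher on the injured side, 9 of 13 replication and 30 of 31 mitosis genes, and 0 were at least 2-fold lower. Among all 16164 genes with at least 20 UMIs, 10.5% were at least 2-fold higher and 2.12% at least 2-fold lower, and their median log2 ratio was 0.14. The median was 1.20 for the replication and 1.79 for the mitosis genes.

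Mki67, the antigen that coats mitotic chromosomes and marks cycling cells, had the highest ratio of the mitosis genes on the injured side, with 24.5 CPM against 3.64 CPM (log2 ratio 2.75). Ube2c, the ubiquitin-conjugating partner of the anaphase-promoting complex, followed at 2.59. Rrm2, the subunit of ribonucleotide reductase that appears in S phase, led the replication genes with 26.6 CPM against 4.85 CPM (2.46). Its partner subunit Rrm1, which is stable through the cycle, had 53.6 CPM against 31.9 CPM (0.75). Pcna, which also serves DNA repair, had 83.8 CPM against 57.7 CPM (0.54), the lowest ratio of all members. Racgap1, a part of the centralspindlin complex of dividing cells, was the lowest of the mitosis genes, with 27.7 CPM against 15.96 CPM (0.79). In neuron-rich bins of the opposite side, those with at least 10 UMIs of neuron markers, Pcna, Rrm1 and Racgap1 had 54.9, 27.7 and 16.4 CPM. Without these 3 genes, a choice made after their values were seen, the replication sum had a log2 ratio of 1.498 and the mitosis sum 2.00. Foxm1, a transcription factor of mitosis genes, had 17.5 CPM against 5.57 CPM (1.65), and the helicase subunit Mcm4 had 12.5 CPM against 7.54 CPM (0.73).

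At 28 days the sides differed little. The mitosis genes summed to 64.9 CPM on the injured and 52.3 CPM on the opposite side (0.31, 0.23 to 0.39), and the replication genes to 133 CPM and 119 CPM (0.16, 0.10 to 0.21). Of 43 members with at least 20 UMIs, 5 were at least 2-fold higher on the injured side and 0 were at least 2-fold lower, where 6.43% and 0.582% of all tested genes were. The 5 were Mcm3 (1.32), Cdk1 (1.43), the mitotic kinase Aurkb (1.10), the checkpoint kinase Ttk (1.08) and Ube2c (1.03). Cdk1 had 2.05 CPM on the injured and 0.753 CPM on the opposite side, and Aurkb rested on 18 and 10 UMIs. The lowest ratio was that of Hmmr, a spindle protein, at −0.24 with 20 and 29 UMIs. Ccnb1 had 7 and 1 UMIs and was not measured. Pcna (0.07), Rrm1 (0.02) and Racgap1 (0.17) were nearly level between the sides. Counted per bin in place of CPM, the replication sum gave a log2 ratio of −0.0036 at 28 days, so its direction depends on the scale.

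**Figure D1:**
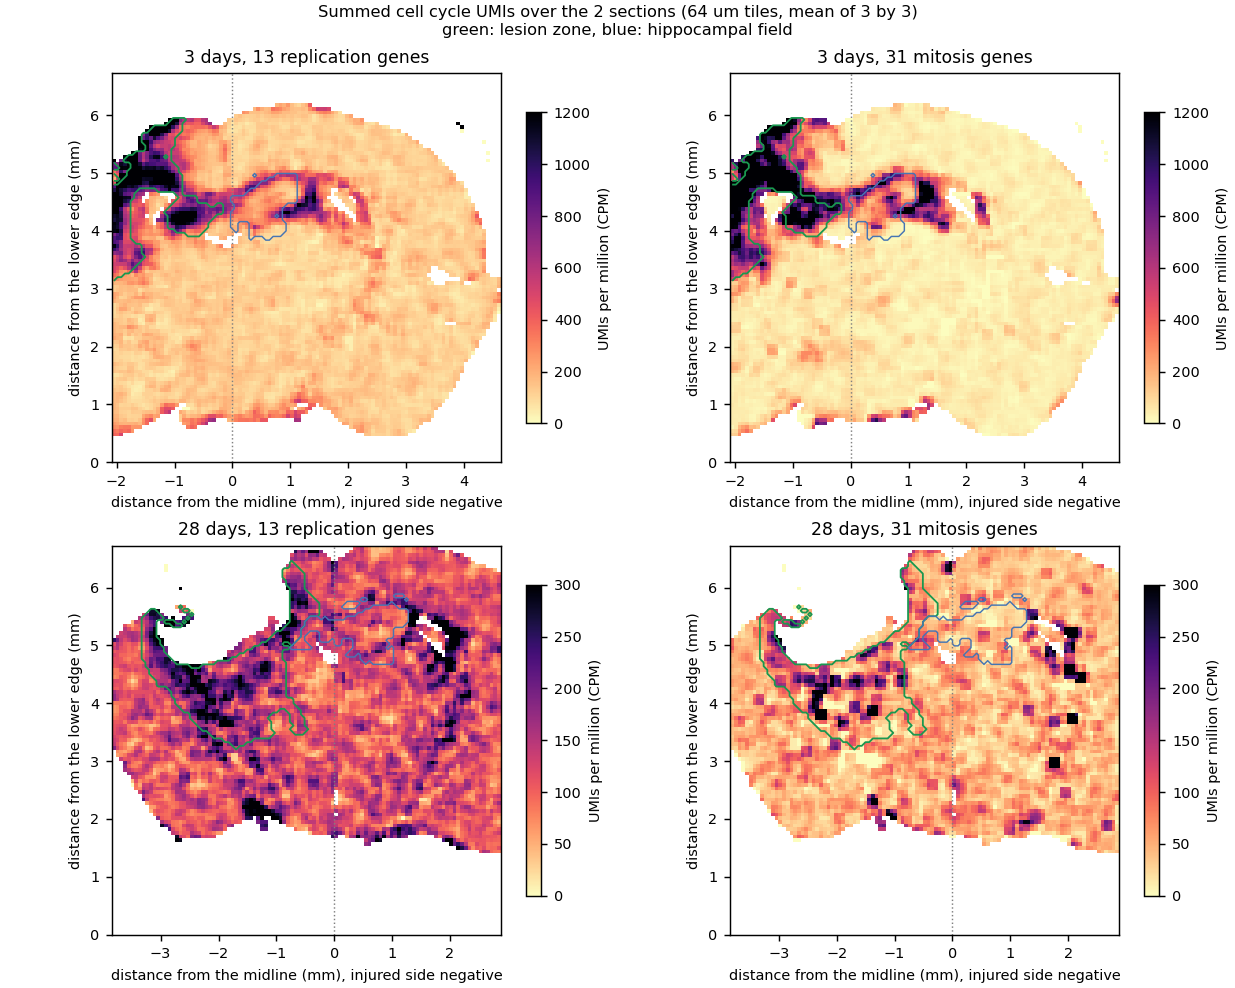
Summed CPM of the 13 replication genes and of the 31 mitosis genes over both sections, in 64 µm tiles averaged 3 by 3. The horizontal axis is the distance from the midline in mm with the injured side negative, the vertical axis the distance from the lower edge in mm, the green outline the lesion zone and the blue outline the hippocampal field, and the colour scale ends at a higher level at 3 days than at 28 days. At 3 days the highest values fill the zone (914 CPM replication, 1204 CPM mitosis). On the opposite side a smaller patch lies in the hippocampal field (325 CPM mitosis). It reaches past the field's outline on the side away from the midline, where white matter lies. All upper white matter of that side had 522 CPM of mitosis genes, at 234 UMIs per bin against 1424 in the field. Counted per bin, it lay below the field.

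The lesion zone held the highest levels of both groups at 3 days. The mitosis genes summed to 1204 CPM there (1172 to 1236) and to 196 CPM in the mirror area, a log2 ratio of 2.62 (2.53 to 2.71). The replication genes summed to 914 CPM and 207 CPM, a log2 ratio of 2.14 (2.05 to 2.23). All 43 members with at least 20 UMIs over both areas were at least 2-fold higher in the zone, where 17.0% of the 13421 genes tested were at least 2-fold higher and 9.07% at least 2-fold lower. The 44th, Ccnb1, had 13 and 4 UMIs. The mirror area was itself above the level of the whole opposite side that holds it, which was 76.3 CPM of mitosis genes, and against the whole opposite side the zone ratio was 3.98 for mitosis and 2.74 for replication genes. It also had more dentate markers than the opposite side (165 against 74.0 CPM) and more ependymal markers (217 against 76.6 CPM). Its overlap with the hippocampal field and the ventricular wall, both described below as higher in members, was not counted. Depth differed too, with 592 UMIs per bin in the zone and 908 in the mirror area. Counted per bin, the ratios were 2.00 and 1.52, and with a stricter zone threshold the mitosis ratio was 3.29. The 2 areas also differed in makeup. Monocyte and macrophage markers had 255 CPM in the zone against 8.80 CPM in the mirror area, and oligodendrocyte precursor markers 351 against 146 CPM. Oligodendrocyte markers had 11626 against 4707 CPM, and neuron markers were lower, 2020 against 7679 CPM. The part of this makeup in the member levels was not tested.

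By role, the nucleotide enzymes had 342 CPM in the zone and 67.1 CPM in the mirror area (2.35), and the helicase subunits 223 CPM and 47.6 CPM (2.23). Within the enzymes Rrm2 stood highest with 146 CPM against 13.8 CPM (3.39, 3.08 to 3.74), and thymidine kinase Tk1 had 46.5 CPM against 7.07 CPM (2.71). Rrm1 had 133 CPM against 42.3 CPM (1.66) and thymidylate synthase Tyms 16.7 CPM against 3.93 CPM (2.07). The 6 helicase genes lay close together, from 1.81 for Mcm4 (37.2 CPM against 10.5 CPM) to 2.61 for Mcm3 (32.9 CPM against 5.34 CPM). Cdc6, which loads the helicase, had 42 UMIs in the zone and 6 in the mirror area (3.21). Uhrf1, which restores DNA methylation behind the fork, had 115 CPM against 13.04 CPM (3.13). Pcna was the lowest of all members at 1.51 (1.36 to 1.67), with 224 CPM against 78.7 CPM.

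Among the mitosis genes, the spindle assembly factor Tpx2 had the highest ratio, 43.6 CPM against 3.14 CPM (3.76, 3.13 to 4.54), which rests on 196 UMIs in the zone and 20 in the mirror area. Topoisomerase Top2a and Mki67 had 93.0 CPM against 12.9 CPM (2.85) and 124 CPM against 14.8 CPM (3.06). Cdk1 had 62.1 CPM against 9.58 CPM (2.69), cyclin genes Ccna2 and Ccnb2 had ratios of 2.51 and 2.63, and Foxm1 had 76.3 CPM against 15.1 CPM (2.33). Cdc20 and Ube2c, which act with the anaphase-promoting complex, and Cdca3 together summed to 165 CPM against 21.7 CPM (2.93), led by Cdca3 at 3.08. The chromosomal passenger proteins and mitotic kinases (Birc5, Aurkb, Cdca8, Aurka, Plk1 and Pbk) summed to 160 CPM against 25.8 CPM (2.63). The centromere and checkpoint genes summed to 121 CPM against 23.2 CPM (2.38), with the kinetochore motor Cenpe highest at 3.02 and the centromeric histone Cenpa lowest at 1.83. Racgap1 was again the lowest of the group, 76.1 CPM against 22.8 CPM (1.74, 1.46 to 2.03). The lowest member therefore still lay above the median of all tested genes, 0.11.

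**Figure D2:**
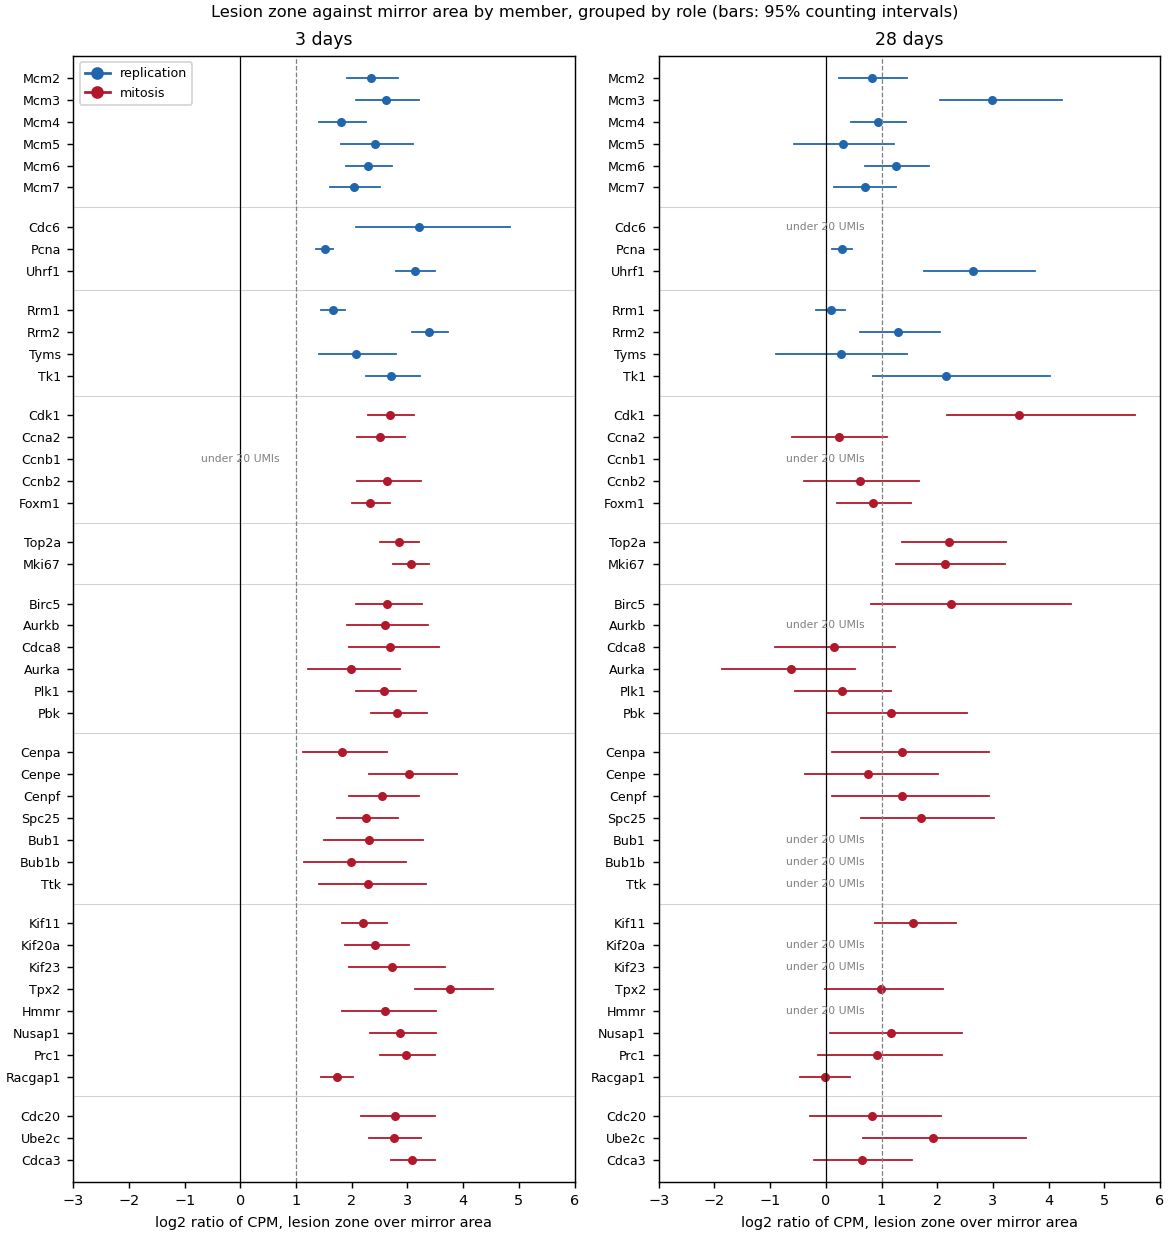
Log2 ratio of CPM in the lesion zone over the mirror area for each of the 44 members, grouped by role, at 3 days (left) and 28 days (right). Points are single sections, bars are exact 95% counting intervals, the dashed line marks a ratio of 2-fold, and members under 20 UMIs have no point. At 3 days the points lie between 1.51 (Pcna) and 3.76 (Tpx2), and at 28 days between −0.62 (Aurka) and 3.47 (Cdk1).

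At 28 days the zone was larger, and its member levels were lower and closer to those of the mirror area. The mitosis genes summed to 108 CPM in the zone and 54.4 CPM in the mirror area (0.98, 0.81 to 1.16), and the replication genes to 191 CPM and 128 CPM (0.57, 0.46 to 0.69). Without Pcna, Rrm1 and Racgap1 the replication ratio was 1.24 and the mitosis ratio 1.16. Of 35 members with at least 20 UMIs, 16 were at least 2-fold higher in the zone, 5 of 12 replication and 11 of 23 mitosis genes, and 0 were at least 2-fold lower, against 16.5% and 7.56% of all 13620 genes tested. The members under 20 UMIs over both areas were Cdc6, Ccnb1, Aurkb, Bub1, Bub1b, Ttk, Kif20a, Kif23 and Hmmr. Cdk1 had the highest ratio, 6.38 CPM against 0.518 CPM (3.47, 2.17 to 5.56), from 47 and 4 UMIs. Mcm3 had 9.64 CPM against 1.17 CPM (2.98), Uhrf1 9.24 CPM against 1.42 CPM (2.64), Top2a 8.01 CPM against 1.68 CPM (2.21) and Mki67 7.06 CPM against 1.55 CPM (2.14). The apoptosis inhibitor and passenger protein Birc5 (2.26) and Tk1 (2.16) were also high, on 20 and 23 UMIs in the zone. Rrm1 (0.09), Racgap1 (−0.02) and Pcna (0.29) were near level, with 33.8, 11.1 and 75.6 CPM in the zone. The kinase Aurka was the lowest at −0.62 (−1.87 to 0.52), from 11 and 18 UMIs. Mcm4 had 13.4 CPM against 6.995 CPM (0.94) and Foxm1 7.47 CPM against 4.15 CPM (0.84).

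Between the 2 mice, all 43 members with enough UMIs were at least 2-fold higher in the zone at 3 days than in the zone at 28 days, though the zones differ in size and in makeup. Among all 13649 genes tested, 6.53% were at least 2-fold higher and 4.86% at least 2-fold lower at 3 days. The mitosis sum was 11.2-fold higher at 3 days than at 28 days in the zone and the replication sum 4.79-fold higher, while on the opposite side they were 1.46-fold and 1.15-fold higher. Single genes ranged from 2.76-fold for Mcm4 and 2.96-fold for Pcna to 18.1-fold for Rrm2, 21.0-fold for Cdca3 and 28.5-fold for the kinesin Kif20a. Kif20a had 130 UMIs in the zone at 3 days and 7 at 28 days. Mki67 was 17.3-fold, Foxm1 10.1-fold, Racgap1 6.80-fold and Rrm1 3.94-fold higher at 3 days. Marker sums of the zone moved as well: the monocyte and macrophage markers had 255 CPM at 3 days and 69.1 CPM at 28 days, and the microglia markers 197 CPM and 228 CPM. Their part in the member levels was not tested.

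Levels in CPM were graded by distance from the zone border at 3 days. The mitosis genes had 1637 CPM more than 250 µm inside the zone, 1104 CPM up to 250 µm inside, 391 CPM up to 250 µm outside and 132 CPM from 250 to 500 µm outside. They then had 72.5, 80.0 and 81.6 CPM in the bands to 1000 µm, to 2000 µm and beyond, near the 76.3 CPM of the opposite side. The replication genes had 1228, 842, 355 and 176 CPM in the same 4 bands nearest the core and 138, 132 and 158 CPM farther out. Depth was 461 UMIs per bin in the core, 633 in the outer zone and 953 in the first band outside. Per bin, the step from core to outer zone would therefore be smaller for both groups. Mki67 had 169 CPM more than 250 µm inside and 39.7 CPM in the first band outside, and Pcna 250 CPM and 111 CPM. Macrophage markers were at 538 CPM in the core, 190 CPM in the outer zone and 30.6 CPM in the first band outside, microglia markers at 111, 216 and 155 CPM. The first band outside also held choroid plexus markers at 1194 CPM. Where the zone was drawn at the 95th percentile, mitosis genes in the first band outside were 1.19 above the opposite side on the log2 scale in place of 2.36, and replication genes 0.62 in place of 1.37. At 28 days the gradient in CPM ended at the border, with 135 and 91.9 CPM of mitosis genes in the inner and outer zone. The bands outside had 53.4, 56.4, 56.2 and 51.8 CPM. Replication genes had 223 and 173 CPM inside and 113 to 123 CPM outside. Depth was 499 and 545 UMIs per bin in the inner and outer zone and 738 to 962 in the bands outside. Per bin, the mitosis genes would therefore step down less at the border. The replication genes inside the zone would not exceed every band outside on that scale.

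**Figure D3:**
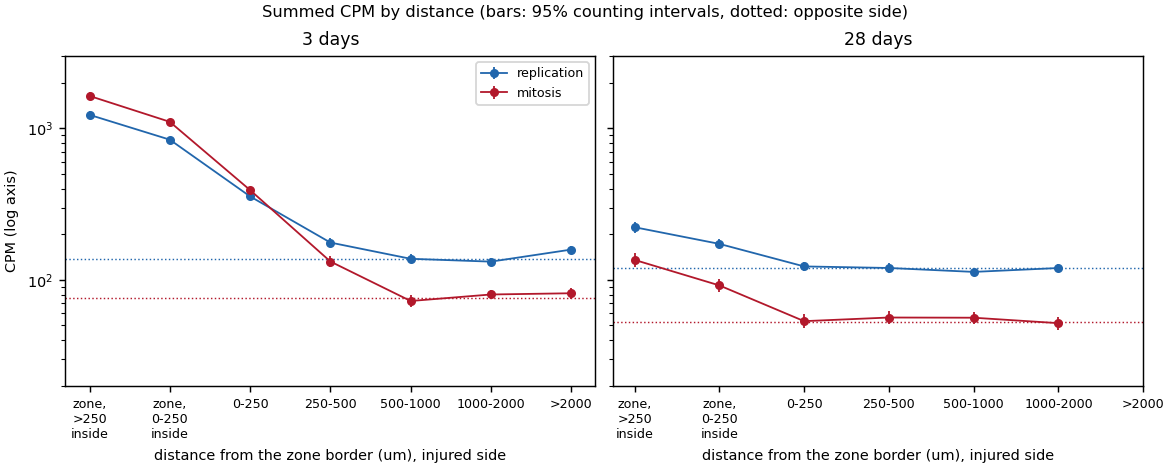
Summed CPM of the replication and the mitosis genes (log axis) in bands by distance from the border of the lesion zone on the injured side, at 3 days (left) and 28 days (right). Bars are exact 95% counting intervals and dotted lines the level of the opposite side. At 3 days mitosis genes go from 1637 CPM in the core to 72.5 CPM in the band from 500 to 1000 µm, and at 28 days from 135 CPM to 56.2 CPM.

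The balance of the 2 groups differed between areas. Mitosis genes made up 56.8% of member UMIs in the zone at 3 days (log2 of mitosis over replication 0.40), 48.6% in the mirror area (−0.08) and 35.7% on the whole opposite side (−0.85). The log2 difference between zone and mirror area was 0.48 (0.35 to 0.61) and that between the sides 0.83 (0.77 to 0.89). The share at 28 days was 36.1% in the zone and 29.8% in the mirror area, a log2 difference of 0.41 (0.20 to 0.62), and between the sides the difference was 0.15 (0.05 to 0.25). In neuron-rich bins of the opposite side the share was 32.2% at 3 days and 29.2% at 28 days. Without Pcna, Rrm1 and Racgap1, the difference between zone and mirror area was 0.018 at 3 days and −0.082 at 28 days, and that between the sides 0.50 and −0.018.

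A second site of member UMIs lay on the side opposite the injury at 3 days, in the hippocampal field. This area was added after the map had been seen and was bounded by dentate and CA1 markers, widened by 192 µm, with the remaining upper tissue of the same side, called other dorsal tissue, as its reference. The mitosis genes summed to 325 CPM in the field (309 to 342) and to 62.3 CPM in the other dorsal tissue, a log2 ratio of 2.38 (2.28 to 2.49). The replication genes summed to 265 CPM and 133 CPM (0.99, 0.90 to 1.09), or a ratio of 1.75 without Pcna, Rrm1 and Racgap1. The difference of the 2 ratios was 1.39 with all members and 0.88 without these 3. Since the area was chosen on these values, they are a description. Of 42 members with at least 20 UMIs, 38 were at least 2-fold higher, 8 of 12 replication and 30 of 30 mitosis genes, and 0 were lower, beside 9.91% and 6.89% of all 13668 genes. Cdk1 had 16.3 CPM against 1.25 CPM (3.70), the kinetochore gene Spc25 13.2 CPM against 1.03 CPM (3.65), Mki67 28.0 CPM against 2.41 CPM (3.53) and Top2a 25.9 CPM against 2.28 CPM (3.497). Uhrf1 led the replication genes, 24.4 CPM against 3.27 CPM (2.90). Racgap1 was the lowest mitosis gene at 1.01 (28.6 CPM against 14.2 CPM), and Pcna the lowest of all at 0.41 (81.2 CPM against 61.1 CPM), with Rrm1 at 0.62. Foxm1 had 23.5 CPM against 5.34 CPM (2.14) and Mcm4 14.4 CPM against 6.24 CPM (1.21).

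Mitosis UMIs were spread across this field. They stood at 318 CPM within 500 µm of the midline, 357 CPM from 500 to 1000 µm and 198 CPM from 1000 to 1500 µm, and at 295 CPM in the dentate granule layer, where newborn neurons arise. White matter of the upper opposite side had 522 CPM of mitosis and 540 CPM of replication genes. Its depth was only 234 UMIs per bin, and counted per bin the log2 ratio to the other dorsal tissue was 0.86 for mitosis and −0.18 for replication genes, against 3.07 and 2.02 in CPM. In CPM the replication ratio was 2.67 without Pcna, Rrm1 and Racgap1. The corresponding field of the injured side was not found outside the zone at 3 days.

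At 28 days the field showed no such excess. Mitosis genes had 40.7 CPM in it and 47.6 CPM in the other dorsal tissue (−0.22, −0.49 to 0.03), and replication genes 109 CPM and 115 CPM (−0.08, −0.24 to 0.08). Of 23 members with enough UMIs, 1 was at least 2-fold higher and 1 at least 2-fold lower, against 5.49% and 5.78% of all 13194 genes. The higher one was Tyms with 4.96 CPM against 1.33 CPM (1.91, 0.91 to 2.88). The lower one was the kinesin Kif23 with 1 and 19 UMIs (−1.58, −7.50 to 0.53). Mki67 had 3 UMIs in the field and Top2a 2, where they had 132 and 122 at 3 days. The dentate granule layer had 59.3 CPM of mitosis genes at 28 days.

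**Figure D4:**
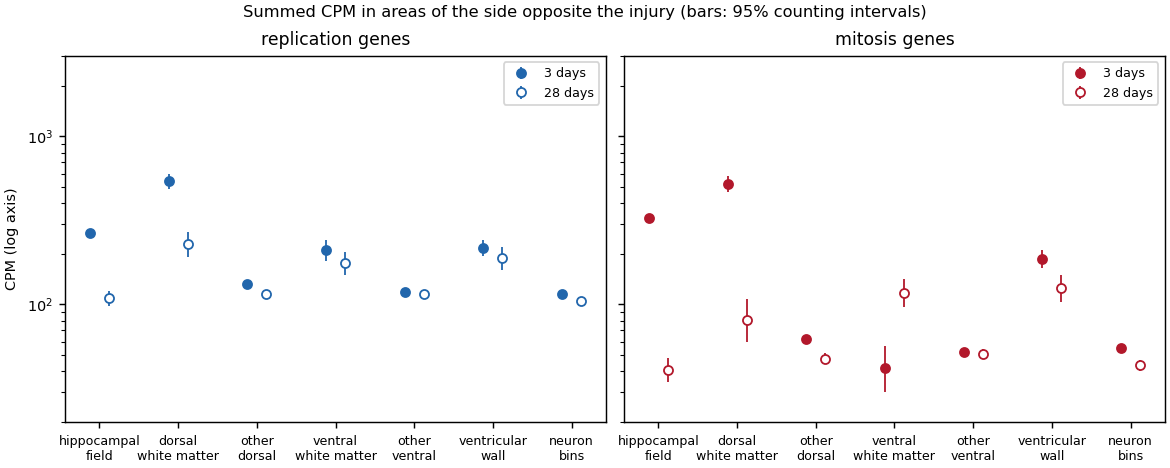
Summed CPM of replication genes (left) and mitosis genes (right), on a log axis, in 7 areas of the side opposite the injury at 3 days (filled) and 28 days (open), with exact 95% counting intervals. Mitosis genes stand at 325 CPM in the hippocampal field at 3 days and 40.7 CPM at 28 days, and in neuron-rich bins at 55.0 and 43.4 CPM.

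The ventricular wall, found from ependymal markers (3141 CPM in the wall of the opposite side at 3 days), had more of both groups than the rest on the opposite side at both times. There the mitosis genes had 186 CPM in the wall and 72.3 CPM in the rest at 3 days (1.36, 1.18 to 1.54), and 125 CPM and 50.6 CPM at 28 days (1.31, 1.02 to 1.58). Replication genes had 217 CPM and 134 CPM (0.70), and 188 CPM and 118 CPM (0.68). The wall was shallower, with 744 UMIs per bin against 1032 in the rest at 3 days and 616 against 838 at 28 days. Ratios counted per bin would therefore be lower than these in CPM. Of 43 members measured at 3 days, 21 were at least 2-fold higher in the wall, where 22.5% of all 15074 genes were, and at 28 days 25 of 39 were, where 18.7% were. The opposite wall at 28 days held 114 mitosis and 171 replication UMIs over all members, so many of these single ratios rest on few UMIs. Fitted ratios at least 2-fold lower came from 3 members at 3 days, Aurka, Cenpa and Spc25, beside 8.61% of all genes, and from 0 members at 28 days, beside 7.62%. These 3 had 0 UMIs in the wall, which allows up to 2.18 CPM and is above their level in the rest, so no fold is given for them or for Cdc6, also at 0.

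Kif11, the kinesin that pushes spindle poles apart, stood out in the wall. It had 63 of the 256 mitosis UMIs of the opposite wall at 3 days, 45.7 CPM against 3.36 CPM in the rest (3.78, 3.35 to 4.17), and 18 UMIs at 28 days, 19.8 CPM against 2.19 CPM (3.21, 2.36 to 3.91). In the wall of the injured side outside the lesion zone it had 39.9 CPM at 3 days and 14.6 CPM at 28 days. Without it the mitosis ratio of the opposite wall at 3 days was 1.03. The centromere protein Cenpf (3.09 at 3 days, 3.19 at 28 days), Uhrf1 (2.09 and 3.12) and Mki67 (1.71 and 2.84) were also higher, on 12, 25 and 14 UMIs in the wall at 3 days and 4, 14 and 8 UMIs at 28 days. The 28-day intervals were wide, 1.06 to 4.60 for Cenpf, 2.14 to 3.91 for Uhrf1 and 1.49 to 3.84 for Mki67. The helicase genes summed to 75.4 CPM against 31.3 CPM at 3 days (1.28) and to 57.2 CPM against 26.7 CPM at 28 days (1.11). Foxm1 was at 0.48 and 1.64, Mcm4 at 1.70 and 1.12, Racgap1 at 0.86 and 0.14, Rrm1 at 0.39 and 0.73, and Pcna at 0.13 and 0.02.

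Wall bins inside the lesion zone were left out of the injured-side wall. It kept 1135 of 3379 wall bins at 3 days, with 1854 on the opposite side, and 859 of 3051 at 28 days, with 1476 opposite. All wall bins together, those in the zone included, had 302 CPM of mitosis genes at 3 days and 108 CPM at 28 days. Outside the zone, the injured-side wall had 275 CPM of mitosis genes against 138 CPM in the rest at 3 days (0.998, 0.83 to 1.16). At 28 days it had 74.3 CPM against 53.7 CPM (0.48, 0.06 to 0.85). Replication genes had 300 CPM against 181 CPM (0.74) and 139 CPM against 118 CPM (0.25, −0.05 to 0.52). The mitosis ratio at 3 days depended on the threshold for the wall, with 1.42 at a looser and 0.23 (−0.04 to 0.48) at a stricter one, and at 28 days it was 1.51 for the wall without widening. The patches of wall were unlike each other. At 3 days mitosis genes had 467 CPM in the upper patch of the injured side, 355 CPM in that of the opposite side, 136 CPM in the upper midline patch and 76.6 CPM in the lower midline patch. The same 4 patches at 28 days had 23.4 CPM, from 3 UMIs, 168, 84.1 and 99.6 CPM. The upper lateral patches at 3 days, which had the most member UMIs, also held choroid plexus markers at 1166 and 1068 CPM and microglia markers at 159 and 126 CPM. The part of these cells was not tested.

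Single bins were also asked whether they held several members at once, after each was thinned to 300 UMIs. Shallower bins were left out, which took 1531 bins of the zone and 152 of the hippocampal field at 3 days, and 4571 and 839 at 28 days. At least 3 different mitosis genes were present in 125 of 6061 zone bins at 3 days (2.06%, 1.72 to 2.45) and in 6 of 9391 at 28 days (0.0639%). In the mirror area at 3 days they were present in 17 of 5572 bins (0.305%), in the first 250 µm outside the zone in 30 of 5207 (0.576%) and in the hippocampal field in 23 of 3158 (0.728%, 0.462 to 1.09). The field had 0 of 2760 bins at 28 days, which allows up to 0.109%. Neuron-rich bins of the opposite side, taken as the background, had 2 of 21085 bins at 3 days (0.00949%) and 0 of 10190 at 28 days, which allows up to 0.0294%. They were not free of single members. Unthinned, 8.07% of them held a mitosis UMI and 17.8% a replication UMI at 3 days. Their median depth before thinning was 1548 UMIs at 3 days against 497.5 UMIs in the zone. Any mitosis UMI was present in 26.1% of zone bins, 11.5% of field bins and 1.54% of neuron-rich bins at 3 days. At least 3 replication genes were present in 26 zone bins (0.429%), and any replication UMI in 23.1%. The replication list has 13 genes and the mitosis list 31, so their shares with at least 3 genes are not comparable. Unthinned, at least 3 mitosis genes were present in 535 of 7592 zone bins (7.05%).

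Cell type markers were counted in the same thinned bins, as a description of which cells lay where the members were read. A bin can hold parts of several cells, and depth was equal by thinning. In the zone at 3 days, 1579 bins with a mitosis UMI were set against 3587 bins with no member UMI. The monocyte and macrophage markers had 346 CPM against 187 CPM (0.89, 0.58 to 1.20), endothelial markers 654 against 419 CPM (0.64) and oligodendrocyte precursor markers 489 against 339 CPM (0.53). Fibroblast markers had 601 against 462 CPM (0.38), while neuron markers were lower, 1283 against 1913 CPM (−0.58). The 5 microglia genes of the list had 221 against 211 CPM (0.07, −0.28 to 0.41) on 104 and 227 UMIs, a value for these genes and not for microglia as a whole, and astrocyte (−0.09) and oligodendrocyte (0.02) markers were close to level. Arg1, an enzyme of wound macrophages, led the macrophage list at 1.35 (69 and 62 UMIs), and all but Ms4a7 of its 6 genes lay above 0. The endothelial adhesion gene Pecam1 had 1.03 and the collagen gene Col1a1 0.88, whereas the fibroblast proteoglycan Dcn had −0.82. Within the microglia list the homeostatic marker P2ry12 had 7 UMIs (−0.45, −1.99 to 0.74).

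The same markers were counted in the hippocampal field at 3 days. Its 362 bins with a mitosis UMI had microglia markers at 481 CPM against 173 CPM in 2540 bins with no member UMI (1.48, 0.98 to 1.95), and oligodendrocyte precursor markers at 528 against 210 CPM (1.34, 0.87 to 1.77). All 5 microglia genes lay above 0, with Tmem119 at 1.84 and P2ry12 at 1.77, and so did all 6 oligodendrocyte precursor genes, with Olig2 at 1.57. Monocyte and macrophage markers had 0 UMIs in the mitosis bins and 23 UMIs in the bins with no member. These are too few to show a difference, since a count of 0 allows 3 UMIs. Choroid plexus markers were lower in the mitosis bins, with 0 UMIs against 116 UMIs in the bins with no member. Fibroblast markers were lower (−1.48, −2.42 to −0.76), with 14 UMIs, and oligodendrocyte markers higher (0.53). Bins with replication UMIs alone had microglia markers at 0.76 and oligodendrocyte precursor markers at 0.20 above bins with no member on the log2 scale. For the precursor markers the mitosis bins exceeded these replication bins by 1.14 (0.38 to 2.02), and for the microglia markers by 0.72 (−0.0011 to 1.53). In the upper white matter of that side, where 2254 bins were too shallow and 569 remained, the 71 mitosis bins had 22 microglia UMIs, 1039 CPM against 226 CPM (2.21, 1.33 to 3.05).

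In the zone at 28 days there were 259 bins with a mitosis UMI. Ependymal markers had 556 CPM in them against 220 CPM in bins with no member (1.36, 0.86 to 1.79; 43 UMIs), monocyte and macrophage markers 116 against 45.1 CPM (1.44, from 9 UMIs), microglia markers 271 against 248 CPM (0.16) and neuron markers 1887 against 2488 CPM (−0.39). The microglia, endothelial (0.10) and oligodendrocyte precursor (0.24) markers had intervals that include 0. This zone included part of the ventricular wall, and ependymal markers had 288 CPM in it against 67.7 CPM on the opposite side.

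**Figure D5:**
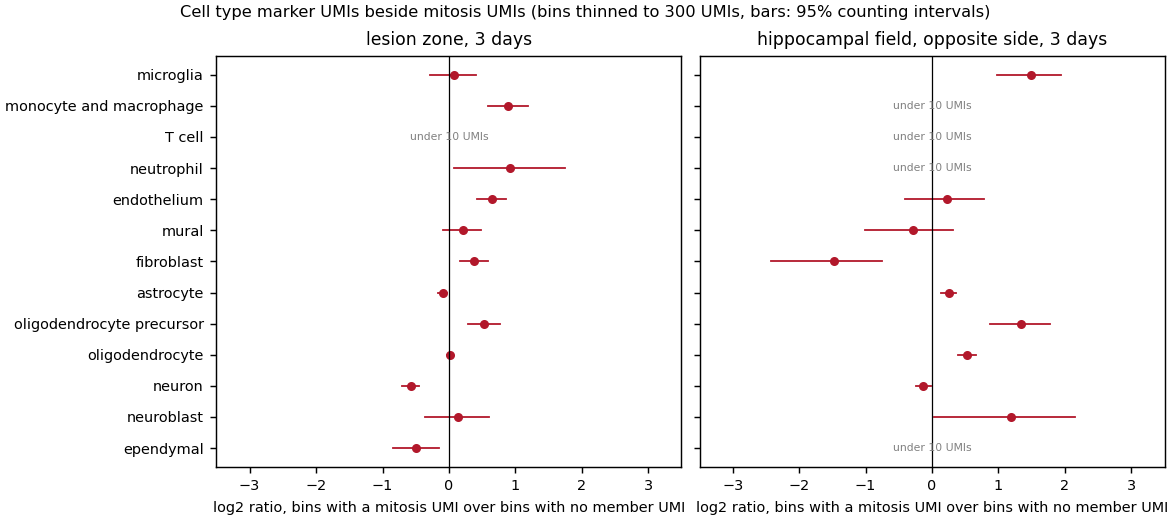
Log2 ratio of summed marker UMIs of 13 cell types in bins with a mitosis UMI over bins with no member UMI, at 3 days, in the lesion zone (left) and the hippocampal field of the opposite side (right). Bins are thinned to 300 UMIs, bars are exact 95% counting intervals, and lists under 10 UMIs have no point. The 5 microglia genes lie at 0.07 in the zone and 1.48 in the field, and macrophage markers at 0.89 in the zone, with too few UMIs in the field for a point.

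The pathway beyond the members was followed through 3 wider lists of genes that are no members: 22 that act in G1 or in arrest of the cycle, 22 further replication genes and 36 further mitosis genes. In the zone at 3 days, 32 of 36 further mitosis genes were at least 2-fold higher than in the mirror area (median log2 ratio 2.40), as were 17 of 21 further replication genes (1.68) and 13 of 22 genes of G1 and arrest (1.32), and 0 were at least 2-fold lower in each list, beside 17.0% and 9.07% of all tested genes. The highest and lowest genes at 3 days are given among those with at least 50 UMIs over both areas. Among the mitosis genes, the cohesin guardian Sgo1 (3.55) and the kinetochore gene Ndc80 (3.49) were highest, and Stmn1 (−0.38), a tubulin-binding protein that neurons also express, and the securin gene Pttg1 (−0.08) lowest. The checkpoint mediator Clspn (3.19) and the helicase partner Gins2 (2.98) led the replication list, with the nucleotide enzyme Dut (0.27) and the origin protein Orc6 (0.41) at its end. In the list of G1 and arrest, the repressor E2f8 (2.82) and Cdk2 (2.68) were highest and cyclin gene Ccne1 (−0.28) and the inhibitor Cdkn1c (−0.25) lowest. With fewer UMIs, Dscc1 of the replication list (3.48, 2.15 to 5.59, from 35 and 4 UMIs) and E2f2 of the list of G1 and arrest (3.67, 1.94 to 7.10, from 22 and 2 UMIs) had higher ratios. These lists at 28 days had 8 of 25, 3 of 20 and 10 of 20 genes at least 2-fold higher in the zone, and 0, 0 and 1 lower. Of all tested genes in that zone, 16.5% were at least 2-fold higher and 7.56% lower. Cdk2 remained high at 2.22, Ccne1 had −1.18, Gins2 1.61, Clspn −0.16, and Dut and Stmn1 −0.70 and −0.51. Cdkn2a, the arrest gene that marks senescent cells, had the highest ratio of that list at 28 days (3.28, 1.81 to 5.83, from 32 and 3 UMIs) and is named after its value was seen.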

How the data were processed

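Gene expression was measured with Visium HD on paraffin sections with the mouse probe set. The count values are whole UMIs per gene and 16 µm bin, which the authors made with Space Ranger 4.0.1 on mm10 and deposited as raw counts, without normalization. Bins under 100 UMIs were left out. The members and all lists were chosen with earlier results of these data known. Sides were split at column 130 at 3 days and column 240 at 28 days, with the lower columns injured.

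UMIs were summed over areas and divided by the area's total UMIs. Ratios used a pseudocount of 0.5 UMI, exact conditional binomial intervals at 95%, and genes with at least 20 UMIs over both areas. Shares have Clopper-Pearson intervals. UMIs of one bin or of neighbouring bins can come from the same cell, so intervals cover counting error only. The ventricular wall was found from ependymal markers above the 99th percentile in windows of 3 by 3 bins and widened by 48 µm. Wall bins inside the lesion zone were left out of the injured-side wall and of the single patches. White matter was the top 10% of bins by oligodendrocyte markers. The hippocampal field, the white matter areas and the neuron-rich bins were added after seeing the data. Patches that the dentate markers also gave, with more Tcf7l2 than Dsp, were left out of the dentate layer for the same reason. Named genes are the 3 members of each group with most UMIs and the highest and lowest ratio of each comparison. Other genes named as examples of a role were chosen after their values were seen. The microglia list holds 5 genes, since another is not reported here, and the list's value in the zone depends on which genes it holds. With 1 section per time no test across animals was made. The ratio and its interval were run on simulated area counts with changes planted in single genes. Those counts had no clustering within cells or bins, so the run checks the calculation alone. Python 3.11.15, numpy 2.4.6, scipy 1.17.1, pandas 2.3.3 and matplotlib 3.10.9 were used, and R 4.3.3 with edgeR 4.0.16 for TMM factors alone.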

Additional observations from a re-analysis of the deposited data

Results flagged for a closer look

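The log2 ratio of the hippocampal field over the other dorsal tissue, on the side opposite the injury, had opposite signs in the 2 sections. For the summed replication genes it was 0.99 at 3 days and −0.08 at 28 days, and for the summed mitosis genes 2.38 and −0.22. For the mitosis genes in the lower white matter of that side over the other lower tissue it was −0.30 at 3 days and 1.21 at 28 days, from 41 and 111 UMIs, with 12 of those at 28 days in a single bin. That sign change held in CPM and not per bin, where the ratios were −2.46 and −0.45, since this white matter had 248 and 246 UMIs per bin against 1106 and 775 in the other lower tissue. The difference between the sections was not tested, since each time has 1 section.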

How the results depend on the processing

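Values below are log2 ratios with replication before mitosis unless said otherwise. Of 220 alternatives to the sums and shares, 112 moved by less than their counting interval, 99 moved further and 9 turned sign. Of 78 alternatives for marker lists and for counts of members at least 2-fold higher, 57 stayed, 19 moved and 2 turned sign. In both sets a turned sign was counted only where the whole interval of the main value had the same sign. Other changes of sign are among the values that stayed or moved. The counts were judged by a fixed fold and not by a counting interval. Counted per bin, the sides gave 0.88 and 1.71 at 3 days and -0.0036 and 0.15 at 28 days, the zone 1.52 and 2.00, then 0.30 and 0.71. The hippocampal field gave 1.40 and 2.79, then −0.40 and −0.54, and the upper white matter −0.18 and 0.86, then −1.31 and −1.52. The lower white matter gave −1.33 and −2.46 in place of 0.83 and −0.30, then −1.05 and −0.45 in place of 0.61 and 1.21. With TMM factors the 3-day sides gave 0.85 and 1.68 and the zone 2.03 and 2.51. With a minimum of 200 UMIs per bin mitosis genes gave 2.52 in the 3-day zone and 3.25 in the white matter, and with no minimum replication genes gave 1.12 in the field. A midline 16 columns lower gave 1.06 and 1.93 for the sides and 1.99 and 2.37 for the zone at 3 days, and one 16 columns higher 0.89 and 1.72 for the sides and 3.03 for mitosis in the zone. Without Pcna and Racgap1, the sides gave 1.24 and 2.00 at 3 days, the zone 2.42 for replication, and the mitosis to replication difference was 0.76 and 0.28. At 28 days replication gave 0.23 for the sides, and the zone 0.80 and 1.16. Against the whole opposite side the 3-day zone gave 2.74 and 3.98. Against neuron-rich bins the zone gave 2.98 and 4.45 at 3 days and 0.86 and 1.31 at 28 days, the field 1.19 and 2.56 and the white matter 2.22 and 3.25. A zone at the 95th percentile gave 1.82 and 2.24 with 0.62 and 1.19 in the first band outside, and 0.75 for mitosis at 28 days. A zone with the stricter of the thresholds gave 2.32 and 3.29 with 1.83 and 2.96 in that band, and 0.15 for replication in the band at 28 days. Without Pcna, Rrm1 and Racgap1 the sides gave 1.498 and 2.00, the 3-day zone 2.69 for replication, the field 1.75 and 2.62 and the white matter 2.67 and 3.34. The mitosis to replication differences were then 0.50, 0.018, 0.88 and 0.67. At 28 days they were −0.018 for the sides and −0.082 for the zone, where replication gave 0.38 and 1.24 and mitosis in the zone 1.16, and replication gave 0.16 in the field and 1.54 in the white matter.

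For the wall without widening, replication gave 0.96 on the opposite and 0.95 on the injured side at 3 days, and mitosis 1.72 and 1.51 at 28 days. Widened by 6 bins, mitosis gave 1.13 on the opposite side at 3 days. At the 98th percentile the injured wall at 3 days gave 0.92 and 1.42, and with the stricter threshold 0.49 and 0.23, with 1.02 for mitosis on the opposite side. Without the member with most UMIs in the wall, the opposite wall gave 1.02 and 1.03 at 3 days and 1.08 for replication at 28 days, and the injured wall 0.83 for mitosis at 3 days and 0.56 for replication at 28 days. Zone bins with at least 2 mitosis genes were 7.34% at 3 days and 0.224% at 28 days, and with at least 2 replication genes 3.76% and 0.128%. With at least 4 genes these were 0.577% and 0.0213% for mitosis and 0.033% for replication at 3 days. Thinned to 500 UMIs, at least 3 genes were present in 5.85% (mitosis) and 1.77% (replication) of bins at 3 days, and unthinned in 7.05% and 3.00% at 3 days and 0.179% and 0.0931% at 28 days. In unthinned bins of the field the astrocyte markers gave −0.25 in place of 0.25 and the neuron markers 0.080 in place of −0.13. The cause of these shifts was not tested. No paired analysis was possible because each time has 1 section, so that the groups share fewer than 2 replicate numbers. Over zone and mirror area, 9 members had under 20 UMIs at 28 days and 1 at 3 days, although the total UMIs of these areas were higher at 28 days.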

Other observations

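On the side level at 3 days, the wider lists held 10 of 22 genes of G1 and arrest, 8 of 22 further replication genes and 26 of 36 further mitosis genes at least 2-fold higher on the injured side, and 0 at least 2-fold lower, beside 10.5% and 2.12% of all tested genes. E2f8 (log2 ratio 2.23) and E2f7 (1.88), repressors that close S phase, were the highest of the first list, and Clspn (1.97), Gins2 (1.71), Ckap2 (2.48) and Kif18b (2.47) of the others. E2f1 (−0.47), Dut (0.07) and Stmn1 (−0.06) were the lowest. At 28 days 2 of 22, 0 of 22 and 3 of 36 genes of these lists were at least 2-fold higher, beside 6.43% of all tested genes.

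In the hippocampal field of the opposite side at 3 days, 22 of 33 further mitosis genes, 8 of 21 further replication genes and 7 of 20 genes of G1 and arrest were at least 2-fold higher than in the other dorsal tissue, and 1, 0 and 0 were at least 2-fold lower, beside 9.91% and 6.89% of all tested genes.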
